A study of Mus musculus with 4 samples.

Results

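The 36 genes described here encode the proteins that store neurotransmitter in synaptic vesicles, fuse those vesicles with the presynaptic membrane and retrieve them afterwards. They were chosen as a named list, and every probe set assigned to 1 of these symbols alone in the platform's probe-to-gene table was taken. That gave 98 of the 45037 probe sets tested, and 36 of the 18193 genes with a probe set of their own. Summaries use, for each gene, the probe set with the highest mean over the 4 arrays, called its brightest. The animals were males on a C57BL/6 background, 8 to 9 weeks old, and brain RNA was measured. There were 2 wild-type (+/+) mice and 2 Bcas1 knockout (-/-) mice from crosses of heterozygotes, with 1 Affymetrix array labelled for each mouse. The labels give brain as the tissue and add cerebrum in the description. They do not say how Bcas1 was disrupted and name no other allele or treatment. Levels are on the log2 scale of RMA, so a difference of 1 is a 2-fold change, and differences are knockout minus wild type.

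At a synapse, vesicles filled with transmitter dock at the active zone, a protein scaffold facing the cleft. SNARE proteins on vesicle and plasma membrane zip together to drive fusion, synaptotagmins sense the calcium that enters with an action potential, and complexins hold the assembled SNAREs ready. After release the membrane is recovered by clathrin, dynamin and their partners. Bcas1 itself encodes a protein of myelinating oligodendrocytes. Knockout and wild-type brains are compared here for the RNA of the release machinery.

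The brightest Bcas1 probe set measured 12.17 and 12.21 in the wild-type mice, against 11.05 and 10.75 in the knockouts. The difference, -1.29 (SE 0.12), had an unadjusted p of 0.00016 and an adjusted p of 0.74 (limma). Its 2 dim probe sets were higher in the knockout, by 0.77 and 0.64. Whether they cover the sequence removed or altered in the knockout was not analysed here, so they check the genotype labels only in part. Array medians were 6.49 to 6.51. The actin control's 3' minus 5' difference, which grows as RNA degrades, was 1.09 and 1.12 in the wild-type mice, against 1.14 and 1.15 in the knockouts. All 12 pan-neuronal markers tested, such as Rbfox3 and Map2, lay at or above the median probe set level of 6.49, as did 7 of 7 measured cortical glutamatergic markers, and 7 of 7 measured cerebellar markers, such as Gabra6 and Pcp2, although the description names the cerebrum. Of 7 hindbrain and spinal cord markers 4 lay below it. By their brightest probe sets 11643 of all 18193 genes lay at or above that level. Passing it does not by itself show which regions were present. Mean levels were 8.675 to 11.678 for the 7 cerebellar markers and 4.492 to 8.39 for the 7 hindbrain and spinal cord markers. Gabra6 measured 11.57 to 11.78 over the 4 arrays, so RNA of this cerebellar marker was in the samples. The share of cerebellar tissue was not measured. The second knockout array was the highest of the 4 for 8 of 8 measured nasal mucosa markers, beside 6854 of all 18193 genes. It was also the highest for 6 of 7 endothelial and 5 of 7 pituitary markers, but for 0 of 7 mature oligodendrocyte markers. The nasal mucosa markers had a mean level of 7.41 there and 6.63 to 6.72 on the other arrays, and 5 of these 8 lay below the median level. Their widest gaps were in Stoml3 (8.24 against 6.57 to 6.74) and Umodl1 (6.44 against 4.21 to 4.75).

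No presynaptic gene of the 36 passed the test for a difference between the genotypes. In limma 0 of the 36 genes passed an adjusted p of 0.05, where 0.0055% of all genes did. At an unadjusted p under 0.05, 0 passed, where 2.75% of all genes did. The brightest Bcas1 probe set, at a difference of -1.29, did not pass the adjusted threshold either. A count of 0 at that threshold therefore does not show that the levels were equal. Of the 36, 15 had positive differences, 20 negative and 1 was at 0. Differences ran from -0.12 (Synpr) to 0.15 (Bsn), with a median of -0.0075 beside a median of 0.005 over all genes. The median absolute difference was 0.04, against 0.055 over all genes and 0.045 over the 11643 genes at or above the median level, among which 35 of the 36 fall. Both knockout arrays lay below both wild-type arrays for 6 of the 36 genes, against 12.8% of all genes, and above them for 4, against 15.5%. In 7 genes (Vamp2, Syt5, Syt7, Pclo, Rab3a, Rab3c and Slc17a7) the difference was larger than the gap between the mice of either genotype. In 28 at least 1 of these gaps was larger than the difference. The counts of 7 and 28 were not made over all genes. In bulk brain RNA, fewer nerve cells and less RNA per cell cannot be told apart.

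**Figure D1:**
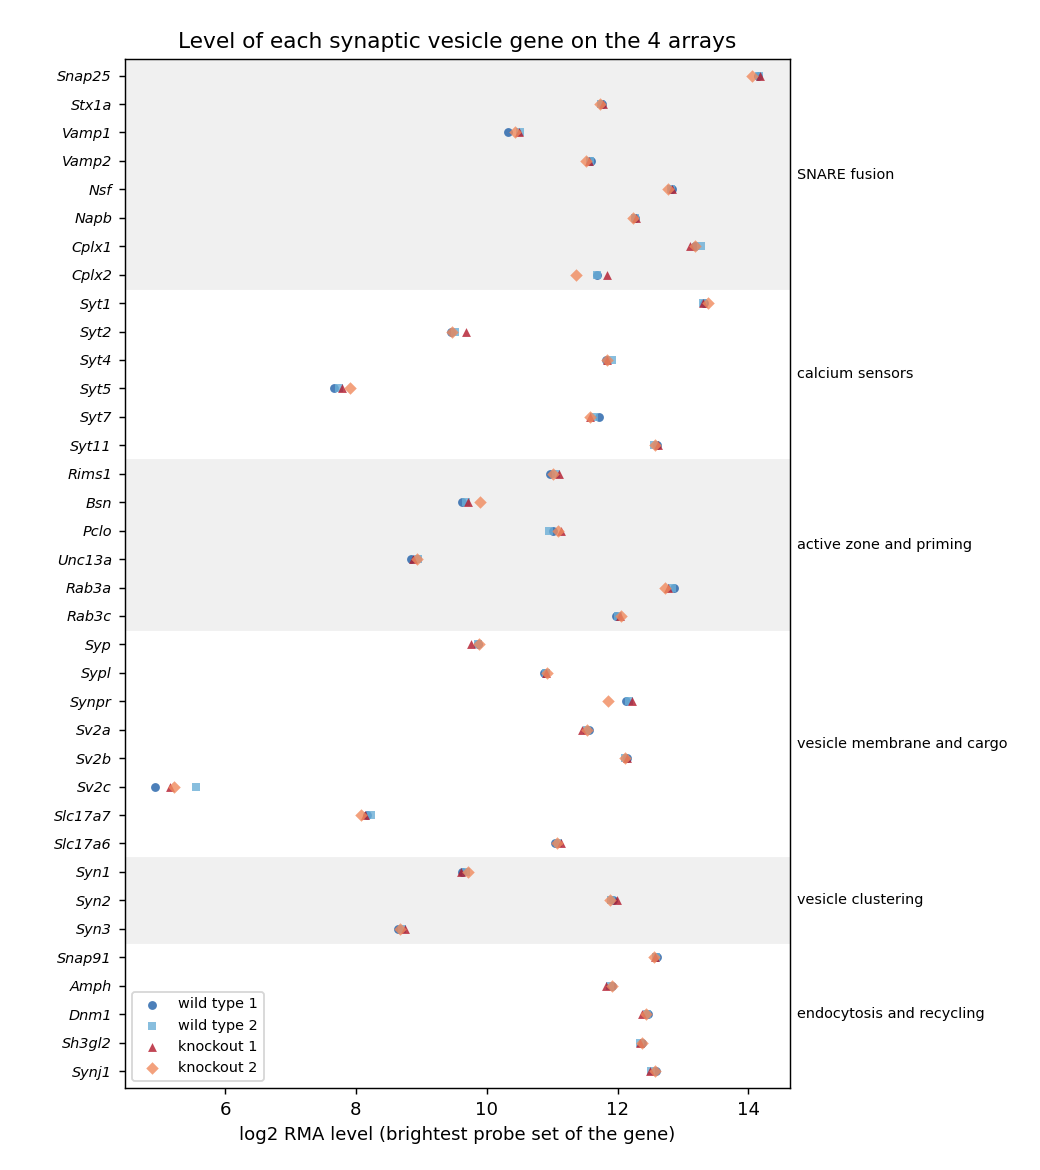
Log2 RMA level (horizontal axis) of each of the 36 genes, read by its brightest probe set and grouped by role, with 1 symbol per array (2 wild-type and 2 knockout mice). Symbols of a gene mostly coincide, the spread over the 4 arrays having a median of 0.10; Sv2c spreads over 0.63 and Cplx2 over 0.48. Probe sets differ in brightness for technical reasons, so levels of different genes are not compared.

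These values bound the size of a difference in array signal, as read by the brightest probe set of each gene. How closely that signal follows the amount of RNA was not tested. The 95% limma interval of the difference included 0 for 36 of 36 genes, and it reached a median of 0.20 to each side of the estimate, from 0.18 to 0.57. For 24 of the 36 the whole interval lay within a 1.2-fold change in either direction, and for 35 within 1.5-fold. The exception at 1.5-fold was Sv2c, whose interval ran from -0.62 to 0.51. The intervals are each for 1 gene and are not adjusted over the 36. Other probe sets of the same genes could reach further, such as 1 of Nsf with an interval of -0.678 to 0.238. The interval of 1 dimmer Sypl probe set, 0.053 to 0.457, did not include 0. An exact permutation test of 2 against 2 mice cannot give a two-sided p below 0.333, so the moderated test carries the comparison.

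**Figure D2:**
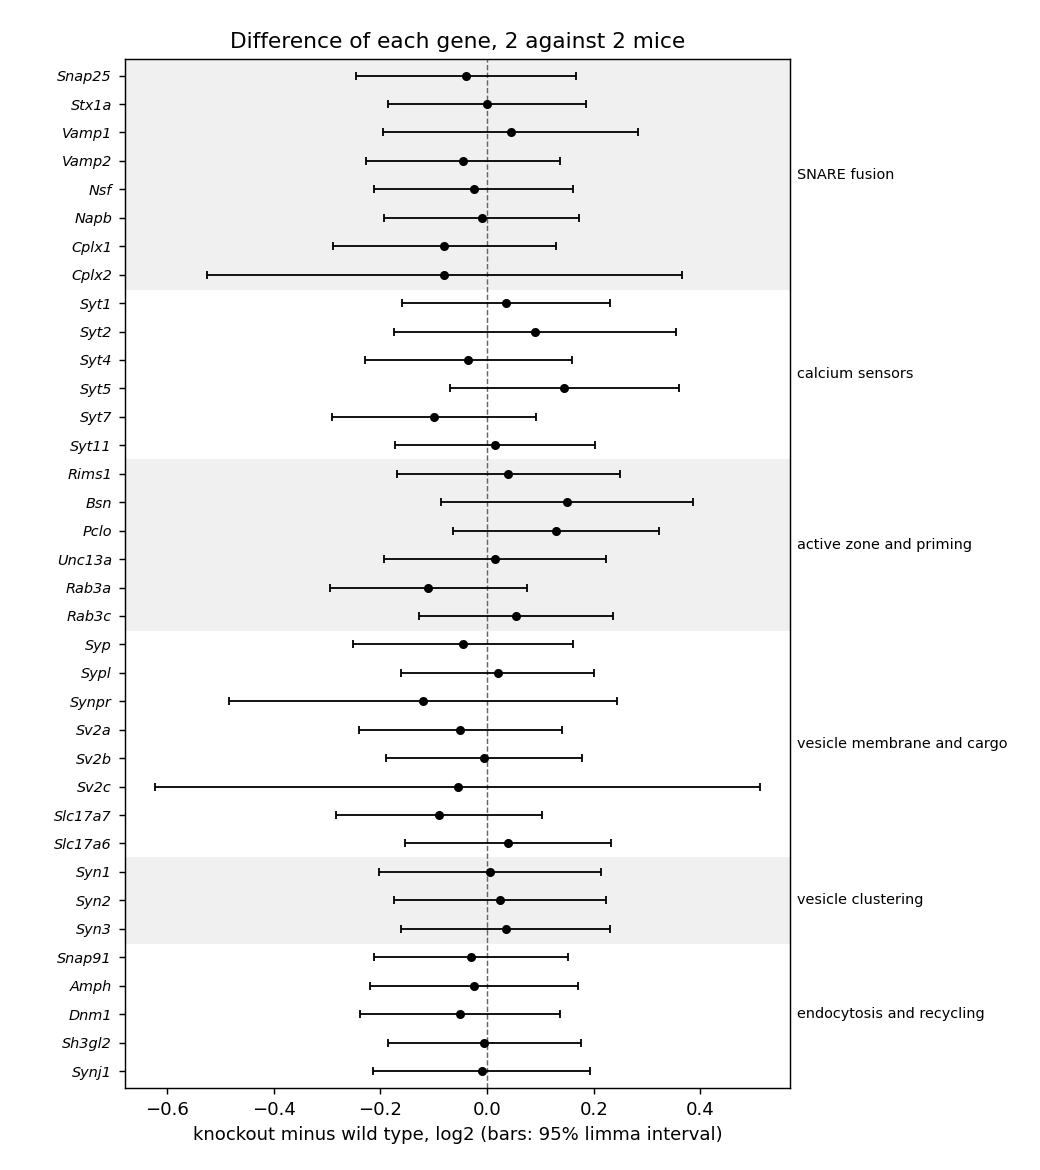
Knockout minus wild type on the log2 scale for the brightest probe set of each gene (points, 2 mice per genotype) with the 95% limma interval (bars). Every interval crosses the dashed line at 0; the widest belong to Sv2c, Cplx2 and Synpr.

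The SNARE fusion machinery had 6 of 8 genes with negative differences, 1 positive and 1 at 0, all between -0.08 and 0.045. Snap25, a plasma membrane SNARE, measured 14.15 and 14.17 in the wild-type mice, against 14.18 and 14.06 in the knockouts. The first knockout mouse was thus the highest of the 4 and the second the lowest, and the difference was -0.04 (SE 0.079). A dimmer Snap25 probe set had the opposite sign, 0.095 (SE 0.16), with overlap. Stx1a encodes syntaxin 1A, the partner of SNAP-25 on the plasma membrane. It measured 11.77 and 11.74 in the wild-type mice, against 11.78 and 11.73 in the knockouts, which is a difference of 0 (SE 0.071). That probe set carries the platform's suffix for probes that can also match other transcripts. The other Stx1a probe set, with a mean level of 8.625, differed by 0.03 (SE 0.108) with overlap. The vesicle SNARE Vamp2 was the 1 gene of this group whose genotypes did not overlap, at 11.59 and 11.58 against 11.56 and 11.52. That gap was -0.045 (SE 0.070), within the fitted error. Vamp1, the related vesicle SNARE, differed by 0.045 (SE 0.091), with the 2 wild-type mice as far apart as 10.33 and 10.51. Nsf, the ATPase that pulls used SNARE complexes apart, measured 12.83 and 12.82 against 12.83 and 12.77, and its adaptor Napb measured 12.27 in both wild-type mice against 12.28 and 12.24. The 4 Nsf probe sets ran from -0.22 to 0.02 and the 6 of Napb from -0.06 to 0.035, so neither gene had 1 direction.

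The complexins, which clamp and then promote fusion, had the same sign in all their probe sets. The brightest Cplx1 probe set measured 13.18 and 13.28 in the wild-type mice, against 13.11 and 13.19 in the knockouts, which is a difference of -0.08 (SE 0.080) with overlapping genotypes. The second measured 11.69 and 11.73 against 11.52 and 11.56, and the third 8.99 and 9.12 against 8.90 and 8.92. In both of these the knockout mice lay below the wild-type mice, by -0.17 (SE 0.071, unadjusted p 0.064) and -0.145 (SE 0.081), and both adjusted p-values were 1 (limma). A 1.13-fold lower level at -0.17 is the largest Cplx1 difference of the 3. The brightest Cplx2 probe set measured 11.68 in both wild-type mice, against 11.84 and 11.36 in the knockouts, so that the 2 knockout mice lay on either side. Its difference was -0.08 (SE 0.17), but -0.32 without the first knockout mouse and 0.16 without the second. The other 2 Cplx2 probe sets differed by -0.04 (SE 0.072) and -0.16 (SE 0.072), and only the latter had no overlap, at 9.54 and 9.49 against 9.33 and 9.38.

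Among the synaptotagmins, 4 of 6 genes had positive and 2 negative differences. Syt1, the calcium sensor of fast release in forebrain neurons, measured 13.32 and 13.30 in the wild-type mice, against 13.30 and 13.39 in the knockouts. Its 4 probe sets had differences of both signs, from -0.08 to 0.10. Syt2, the fast sensor common in brainstem and cerebellar synapses, differed by 0.09 (SE 0.10). Its first knockout mouse stood at 9.69, above the other 3 arrays at 9.46 to 9.52, and without that mouse the difference was -0.02. A second Syt2 probe set separated the genotypes, at 6.79 and 6.81 against 6.97 and 6.99, 0.18 higher (SE 0.069; adjusted p 1, limma). It amounts to 1.13-fold and lies close to the median level of the array.

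Syt7, a high-affinity sensor of slower release, measured 11.72 and 11.64 in the wild-type mice, against 11.58 in both knockouts. The difference was -0.10 (SE 0.073), and its other 3 probe sets differed by -0.095 to 0.045 with overlapping genotypes. Syt5, represented by 1 probe set, measured 7.67 and 7.74 against 7.79 and 7.91. Both knockout mice were above both wild-type mice, by 0.145 (SE 0.082). Syt11, a synaptotagmin that does not bind calcium, measured 12.60 and 12.56 against 12.62 and 12.57, and its 5 probe sets all lay between -0.035 and 0.025. Syt4 differed by -0.035 (SE 0.074).

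The active zone and priming genes had 5 positive and 1 negative difference, and 4 of 6 had no overlap between genotypes, the knockout being above in 3 and below in 1, beside 15.5% and 12.8% of all genes. Bsn (bassoon) and Pclo (piccolo) are giant related scaffold proteins of the active zone. Bsn measured 9.62 and 9.69 in the wild-type mice, against 9.72 and 9.89 in the knockouts, which is a difference of 0.15 (SE 0.091), of which the second knockout mouse carried most. Its other 2 probe sets differed by 0.025 and 0.045 with overlapping genotypes. The brightest Pclo probe set measured 11.02 and 10.95 against 11.14 and 11.09, a difference of 0.13 (SE 0.074). The other 2 Pclo probe sets separated the genotypes the other way, at 9.80 and 9.78 against 9.67 and 9.58, and at 9.28 and 9.22 against 9.17 and 8.94. Their differences were -0.165 (SE 0.075) and -0.195 (SE 0.10), so the 3 probe sets of Pclo do not give the gene 1 direction, and their average was -0.077. The position of each probe set on the Pclo transcript was not analysed here.

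Rab3a, the vesicle GTPase that tethers vesicles to the active zone, measured 12.87 and 12.84 in the wild-type mice, against 12.77 and 12.72 in the knockouts. The difference was -0.11 (SE 0.071), and the second probe set gave -0.065 (SE 0.079) with overlap. The brighter of these carries the platform's suffix for probes that can also match other transcripts. The related Rab3c went the other way, at 11.97 and 12.01 against 12.04 and 12.05, a difference of 0.055 (SE 0.070). Rims1, which links Rab3 to the scaffold, measured 10.97 and 11.06 against 11.10 and 11.01, and its second probe set had the opposite sign at -0.055 (SE 0.085). Unc13a (Munc13-1), which primes vesicles for fusion, measured 8.84 and 8.95 against 8.88 and 8.94. For both genes the wild-type and knockout ranges overlapped.

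Among the vesicle membrane and cargo genes, 6 of 8 differences were negative and 2 positive. Synpr (synaptoporin) had the most negative difference of the 36 genes, -0.12 (SE 0.14). It measured 12.13 and 12.18 in the wild-type mice, against 12.22 and 11.85 in the knockouts, so the low value was that of the second knockout mouse alone. Without that mouse the difference was 0.065, and without the first knockout mouse -0.305. Syp (synaptophysin), the most widely used vesicle marker, measured 9.87 and 9.86 against 9.76 and 9.88, the first knockout mouse being the lowest. Sv2a and Sv2b, transporter-like vesicle glycoproteins, differed by -0.05 (SE 0.073) and -0.005 (SE 0.070). Sv2b measured 12.15 and 12.12 against 12.15 and 12.11. Sv2c was the 1 gene below the median level, and its 2 wild-type mice, at 4.93 and 5.56, enclosed both knockout mice at 5.16 and 5.22.

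The vesicular glutamate transporters divide the brain between them, Slc17a7 (VGLUT1) serving mainly cortex and hippocampus and Slc17a6 (VGLUT2) mainly thalamus and brainstem. Slc17a7 measured 8.17 and 8.23 in the wild-type mice, against 8.14 and 8.08 in the knockouts, which is a difference of -0.09 (SE 0.074) without overlap. Slc17a6 measured 11.04 and 11.09 against 11.14 and 11.07, a difference of 0.04 (SE 0.074), and its second probe set gave 0 with overlapping genotypes. Of 8 genes listed as thalamic markers, 6 were lower in both knockout mice than in both wild-type mice, beside 12.8% of all genes. Those 6 differed by -0.03 (Rora) to -0.285 (Tnnt1), and 0 of the 8 had an unadjusted p under 0.05 (limma). Whether each reads thalamus alone, in samples that also held cerebellar markers, was not tested. The mean log2 level of the 8 was 9.50 and 9.46 in wild-type against 9.34 and 9.43 in knockout brains, with 8 of 8 at or above the median level. The 7 cortical glutamatergic markers had mean levels of 9.69 and 9.68 against 9.72 and 9.59. The part of regional composition in the transporter values was not tested.

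Sypl, a synaptophysin relative found in many tissues, was measured by 7 probe sets. The brightest was level over the arrays, at 10.88 and 10.91 in the wild-type mice, against 10.91 and 10.92 in the knockouts. A dimmer one measured 7.56 and 7.61 against 7.89 and 7.79, a difference of 0.255 (SE 0.077), or 1.19-fold. It was the 1 probe set of the 98 with an unadjusted p under 0.05 (0.023), where 3.42% of all probe sets were, and its adjusted p was 1 in limma. The other 6 Sypl probe sets lay between -0.04 and 0.095, and in 1 of them, at 8.56 and 8.71 against 8.73 in both knockouts, the genotypes were also apart.

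The synapsins, which bind vesicles to each other and to actin in the reserve pool, had differences of 0.005 to 0.035. Syn1 measured 9.62 and 9.68 in the wild-type mice, against 9.60 and 9.71 in the knockouts, the knockout mice enclosing the wild-type mice. Syn2 measured 11.93 and 11.90 against 11.99 and 11.89, and its 6 probe sets ran from -0.03 to 0.085 with overlap in every one. Syn3 measured 8.65 and 8.70 against 8.75 and 8.67.

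Several genes of neuronal vesicles are classic targets of REST, a repressor that binds the RE1 element and silences neuronal genes in other cell types. Promoter windows of 300 bases, from 250 before to 50 after the start site in RefSeq (GRCm38.p6), were matched for 30 of the 36 genes, with 41 windows in all. The left arm of RE1, TTCAGCACC, was searched on both strands and occurred in 2 of the 41 windows (4.88%), against 0.371% of all 32851 windows. These are the windows of Syn1 and Unc13a, shown here because the motif is rare among all windows and the choice of genes did not use it. The right arm, GGACAG, occurred in 24.4% of the 41 windows and 22.2% of all. The Syn1 window lies at chrX:20921091-20921168 on the minus strand, with the arm on the gene's strand, starting at position -232 relative to the start site. The Unc13a window lies at chr8:71671708-71671755 on the minus strand, with the arm on the opposite strand, read here as its reverse complement and starting at base 23 of the transcript. Capitals mark the arm, and both are written 5′ to 3′ along the gene.
Syn1: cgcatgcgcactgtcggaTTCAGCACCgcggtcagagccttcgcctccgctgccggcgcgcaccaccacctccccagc
Unc13a: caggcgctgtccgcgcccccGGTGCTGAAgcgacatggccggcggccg

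The reverse complement of GGACAG also precedes the arm in the Unc13a window, with gcgccccc between them. This is 1 of 30 windows among all 32851 (0.0913%) to hold exact matches of both arms. The arms were sought anywhere in a window and on either strand, without a rule for order or distance. In the Syn1 window the left arm is followed by gc and then ggtcag, which resembles the right arm but was not counted. The RNA of these 2 genes had differences of 0.005 (95% interval -0.203 to 0.213) for Syn1 and 0.015 (-0.193 to 0.223) for Unc13a. The windows of the 30 genes were rich in G and C, with a median of 62.3% against 52.7% over all windows, and 63.4% of them held the GC box GGGCGG on either strand, against 35.7%. A TATAAA box was found in 4.88% of the 41 windows, against 13.6% of all. A match describes letters in a window and is not evidence of binding.

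All 5 genes of endocytosis and recycling had negative differences, but these were -0.005 to -0.05, no larger than the standard errors of 0.069 to 0.078. Dnm1, the neuronal dynamin that cuts vesicles from the membrane, measured 12.47 and 12.45 in the wild-type mice, against 12.38 and 12.44 in the knockouts. Its second probe set, at 7.28 and 7.33 against 7.13 and 7.20, also had both knockout mice below, by -0.14 (SE 0.074, unadjusted p 0.12). Snap91 (AP180), a clathrin adaptor, measured 12.60 and 12.59 against 12.58 and 12.55. Its dimmer probe set had the most negative difference of the 98, -0.24 (SE 0.14), with overlap, at 7.24 and 6.95 against 6.97 and 6.74. Sh3gl2 (endophilin A1), which bends the membrane, measured 12.37 and 12.35 against 12.34 and 12.37. Synj1 (synaptojanin 1), the lipid phosphatase that uncoats vesicles, measured 12.59 and 12.51 against 12.50 and 12.58. The differences of the 3 Sh3gl2 probe sets ran from -0.11 to 0.02 and those of the 4 Synj1 probe sets from -0.025 to 0.17, again with both signs. The 0.17 came from a dim Synj1 probe set with a mean level of 3.93. Those of Synj1 at or above the median level ran from -0.025 to 0.005. Amph (amphiphysin) differed by -0.025 (SE 0.075).

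Several probe sets of a gene often disagreed about its direction. Among the 98 probe sets 86 lay at or above the median level and 12 below. Of the 27 genes with 2 or more probe sets at or above that level, 13 had differences of both signs and 14 had 1 sign, probe sets at exactly 0 set aside. Among the latter, Cplx1, Cplx2, Syt4, Rab3a, Sv2b, Snap91 and Dnm1 were negative in every probe set, and Bsn, Vamp1 and Syt2 positive. The counts of 13 and 14 were not made over all genes, so whether such disagreement is particular to these genes is not known. Over the 98 probe sets 0 passed an adjusted p of 0.05, where 0.00444% of all probe sets did, the smallest adjusted p in limma being 1. Both knockout arrays lay below both wild-type arrays in 15 of the 98, against 13.2% of all probe sets, and above them in 12, against 13.9%.

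**Figure D3:**
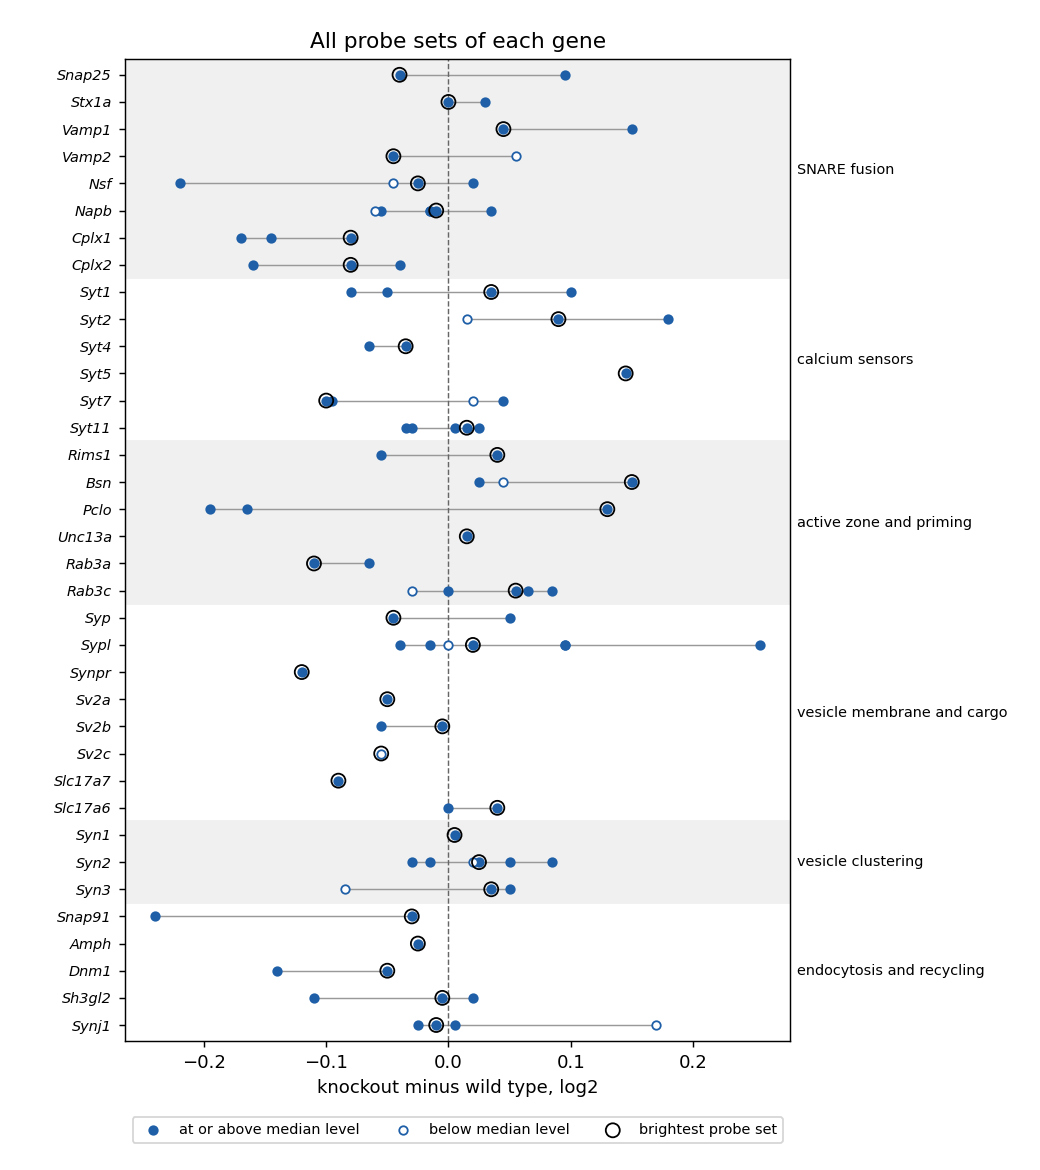
Knockout minus wild type (log2, horizontal axis) for every probe set of each gene, with filled points at or above the median level, open points below it, and a ring on the brightest. The ends of the lines for Pclo (-0.195 and 0.13) and Sypl (-0.04 and 0.255) are far apart, while the 3 points of Cplx1 lie on the negative side, from -0.17 to -0.08.

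In most of these genes the 2 knockout mice differed from each other by more than the genotypes did. The gap between the knockout mice exceeded the genotype difference in 25 of the 36 genes, and the gap between the wild-type mice did so in 16. Neither count was made over all genes, so whether they are particular to these genes is not known. The differences between mice 1 and 2 correlated at 0.42 between the genotypes, across all probe sets at or above the median level. The part of this in the gaps was not tested. In 18 of the 86 brighter probe sets (20.9%) the first knockout mouse was the highest and the second the lowest of the 4, against 10.6% of all 22529 probe sets at or above the median level. The opposite order was found in 3 of the 86 (3.49%), against 13.4% of all. Probe sets of 1 gene share its RNA, so these are not 18 separate observations.

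Several wide gaps came from secondary probe sets of release genes. A Syt1 probe set measured 9.07 in the first knockout mouse and 8.44 in the second, with 8.95 and 8.66 in wild type. A Syt4 probe set measured 11.12 and 10.64, with 10.94 and 10.95 in wild type. An Nsf probe set measured 11.83 and 11.48, with 11.64 and 11.63 in wild type. The brightest probe sets of the same 3 genes had smaller gaps, the knockout mice being at 13.30 and 13.39 for Syt1, 11.84 in both for Syt4 and 12.83 and 12.77 for Nsf. Among the markers, the first knockout mouse was highest and the second lowest for 3 of 8 astrocyte, 2 of 7 mature oligodendrocyte, 1 of 7 cortical glutamatergic and 0 of 12 pan-neuronal genes. The reverse held for 1, 0, 1 and 0 of them. That reverse order was the more frequent in GABAergic (3 against 1 of 8) and nasal mucosa genes (4 against 0 of 8). It held for 2 against 0 of 7 cerebellar, 8 microglial and 7 endothelial genes. Striatal, thalamic and pituitary genes had it in 1 against 0, and hindbrain and spinal cord genes in 1 against 2. The actin 3' minus 5' values of the 2 knockout arrays, 1.14 and 1.15, were alike, and the second held the higher nasal mucosa markers given above. The part of any of these in the gaps was not tested. Without the second knockout mouse the median difference of the 36 genes was 0.0075, and without the first -0.0175.

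**Figure D4:**
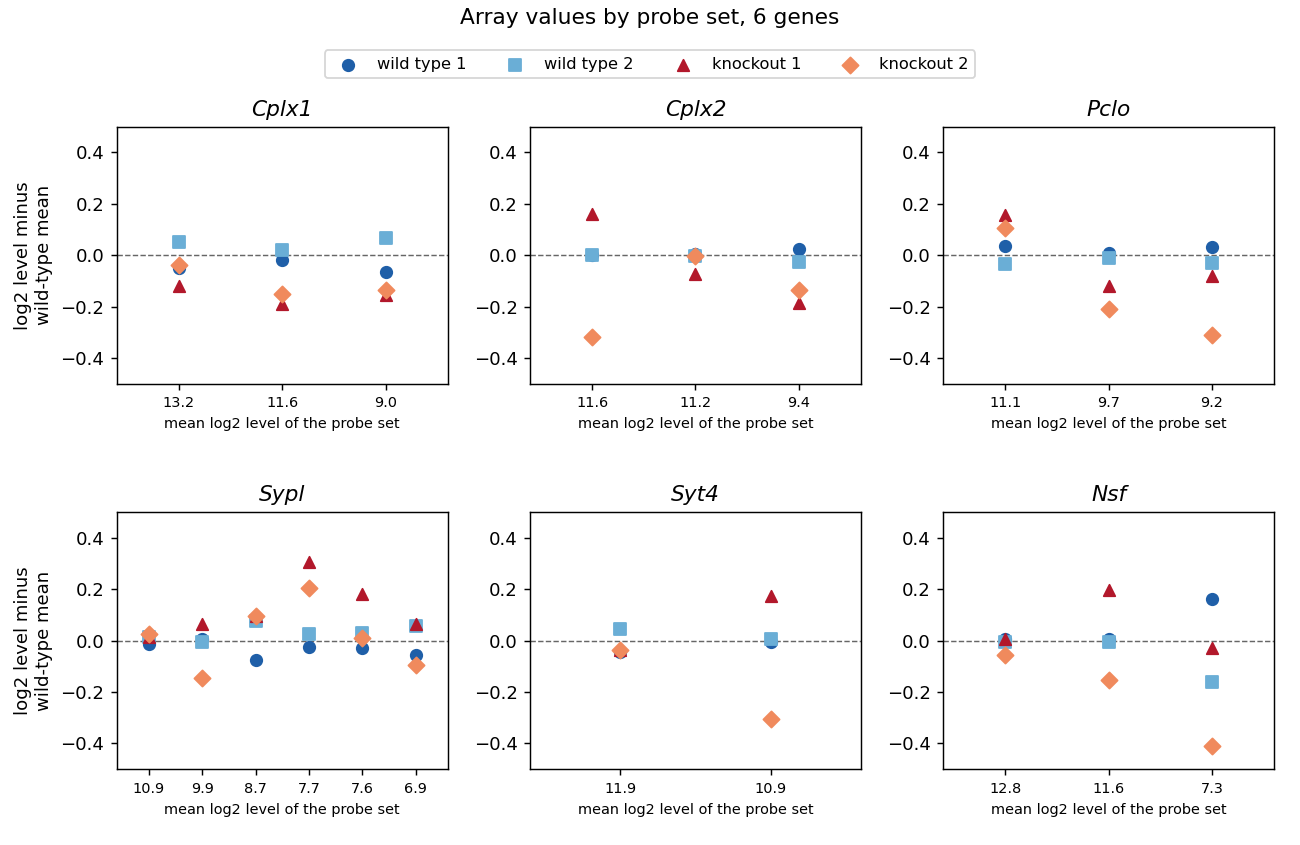
Log2 level minus the wild-type mean (vertical axis) on each of the 4 arrays for the probe sets of 6 genes at or above the median level, placed by their mean level (horizontal axis). In Cplx1 both knockout symbols lie at or below zero in each probe set, in Pclo they change sides between probe sets, and in Cplx2, Syt4 and Nsf 1 probe set each has the first knockout mouse well above and the second well below.

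The rest of the presynaptic pathway also had no gene past the threshold. Of 92 further genes listed, 87 were measured, 39 with positive differences, 47 negative and 1 at 0, and 0 passed an adjusted p of 0.05 or an unadjusted p under 0.05 in limma. Their median difference was -0.005, and differences ran from -0.17 to 0.135. By role, 7 of 17 fusion genes were positive, 5 of 10 calcium sensors, 11 of 21 active zone genes, 7 of 16 vesicle membrane and cargo genes and 9 of 23 endocytosis genes. Both knockout mice lay below both wild-type mice in 13 of the 87 and above them in 7, beside 12.8% and 15.5% of all genes. The most negative value, chosen after the values were seen, was that of Ap2a1, a subunit of the clathrin adaptor AP-2. It measured 8.59 and 8.60 in the wild-type mice, against 8.40 and 8.45 in the knockouts, with a difference of -0.17 (SE 0.070; unadjusted p 0.063, adjusted p 1, limma).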

How the data were processed

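The deposited values are log2 levels of probe sets. The submitters' processing notes name RMA, a method that corrects background, normalizes arrays together and combines probes, without version or settings. No detection calls were used, so dim levels cannot be told from background. After removing 64 control probe sets, 45037 were tested in limma 3.58.1 (R 4.3.3) with lmFit and eBayes, two-sided, Benjamini-Hochberg adjusted over all probe sets at 0.05. The fit had 2 residual and 2.74 prior degrees of freedom and was tested on simulated data. Arrays have no read depth; their number limits precision.

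Per-array values follow a rule: in each role the genes with the largest and smallest absolute difference, any with an unadjusted p under 0.05 or with no overlap and a difference of at least 0.15, and any whose brighter probe sets differ in sign; other genes are given in addition. The genes, marker lists and pathway lists were chosen with earlier results of these data known. Alternatives were other scalings, a filter on dim probe sets, a trended robust variance, averaged probe sets, a replicate block and leaving out each mouse. A choice of probe set without the suffixes for shared probes was added after seeing the data.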

Additional observations from a re-analysis of the deposited data

How the results depend on the processing

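Under all 11 alternatives 0 of the 36 genes (35 with the filter on dim probe sets), and 0 of the further presynaptic genes, passed an adjusted p of 0.05 in limma, with a smallest adjusted p of 0.57 to 1 for the 36. An unadjusted p under 0.05 was found for 0 of the 36 except with a trended robust variance (2), without the first knockout mouse (2) and without the first wild-type mouse (1). The median difference was 0.0025 with each array centred on its median and -0.0175 to 0.0075 when 1 mouse was left out. The mouse numbers of the labels are not said to pair the animals. The differences between mice 1 and 2 correlated at 0.24 between the genotypes across all probe sets and at 0.42 across those at or above the median level, and with the replicate block the median stayed at -0.0075.

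Of 395 single-gene values 344 kept their sign and 37, spread over 23 genes, took the opposite one, none past the threshold; the cause was not tested. The other 14 had no sign to compare: 11 are those of Stx1a, at 0 in the main analysis and -0.025 to 0.03 elsewhere, and 3 became 0 (Napb and Synj1 on centring, Syn3 on averaging). Centring gave 0.005 for Sv2b and 0.005 for Sh3gl2. Averaging all probe sets of a gene gave Snap25 0.0275, Vamp2 0.005, Syt11 -0.004, Rims1 -0.0075, Pclo -0.077, Syp 0.0025 and Synj1 0.035. Leaving out 1 mouse gave ranges of -0.10 to 0.02 (Snap25), -0.045 to 0.135 (Vamp1), -0.055 to 0.005 (Nsf), -0.03 to 0.01 (Napb), -0.32 to 0.16 (Cplx2), -0.01 to 0.08 (Syt1), -0.02 to 0.20 (Syt2), -0.08 to 0.01 (Syt4), -0.01 to 0.04 (Syt11), -0.005 to 0.085 (Rims1) and -0.04 to 0.07 (Unc13a). For the others they were -0.105 to 0.015 (Syp), -0.305 to 0.065 (Synpr), -0.025 to 0.015 (Sv2b), -0.37 to 0.26 (Sv2c), -0.05 to 0.06 (Syn1), -0.025 to 0.075 (Syn2), -0.005 to 0.075 (Syn3), -0.07 to 0.02 (Amph), -0.02 to 0.01 (Sh3gl2) and -0.05 to 0.03 (Synj1). A group left with 1 mouse is assumed to vary like the other. Sv2c, the 1 gene below the median level, had the widest interval.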
